A study of Jaculus jaculus with 29 samples.

Results

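Chloride cotransporters of the SLC12 family, the WNK kinases, the 2 kinases that WNKs act through and the chloride-proton exchanger gene Clcn3 were followed in the supraoptic nucleus of the lesser Egyptian jerboa, Jaculus jaculus, a desert rodent. The 9 genes were listed by symbol, out of 29170 genes in the count table. Of these, 7 were found by their symbol in the authors' deposited table for Dehydrated against Control and joined to the counts by gene ID. Wnk1 and Oxsr1 carry no symbol there and were matched by position to RefSeq genes of the same assembly, mJacJac1, with 0.991 and 0.981 of the spans shared, so their names rest on that overlap. All 9 passed the filter on low counts.

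Polyadenylated RNA from punches of the supraoptic nucleus was sequenced in 29 libraries. Control animals (10 libraries, 5 female and 5 male) had free water. For Dehydrated animals (10 libraries, 6 female and 4 male) water was restricted for 11 days. For Rehydrated animals (9 libraries, 4 female and 5 male) the restriction lasted 7 days and was followed by 3 days with free water. Animals of every group were housed singly with dry food always at hand. Neither age nor strain is given in the labels. They also do not say outright that each library is another animal, so p-values measure the spread between these libraries. A punch mixes every cell type of the tissue, and in such bulk samples fewer cells of a type and less RNA per cell cannot be told apart.

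SLC12 cotransporters move chloride across the cell membrane together with cations. Slc12a2 encodes NKCC1, which carries sodium, potassium and chloride into cells, and Slc12a5 and Slc12a7 encode the potassium-chloride cotransporters KCC2, found in neurons, and KCC4, which carry chloride out. The balance of uptake and removal sets whether GABA inhibits or excites a neuron, and chloride handling of vasopressin neurons has been reported to shift in rats under salt loading. WNK kinases respond to chloride and osmolarity and phosphorylate SPAK (Stk39) and OSR1 (Oxsr1). These in turn phosphorylate NKCC1, which activates it, and the KCCs, which inhibits them. Clcn3 encodes ClC-3, a chloride-proton exchanger of endosomes and synaptic vesicles. Transcript counts do not measure phosphorylation or transport.

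Total counts ran from 10797577 to 18856620 per library. Magnocellular markers were present, with the summed level of 8 such genes between 555 and 7055 CPM (counts scaled to a common library total, here with TMM). Avp, the vasopressin precursor gene, was at 934 ± 597 CPM (SD, n = 10) in Control, 3293 ± 1198 (n = 10) in Dehydrated and 2037 ± 1086 (n = 9) in Rehydrated. It rose in Dehydrated against Control (log2 difference 1.81, SE 0.37, adjusted p = 0.0388). With each library left out in turn its difference ran from 1.71 to 2.07 and it passed in 10 of 29 fits. Without Control M01 the adjusted p of Avp was 0.0879. 1 library, Control M01, stood apart: on the first principal component of the tested genes it lay at 137, and the other 28 lay between -13.7 and 7.76. Control M01 also had the lowest total count. The test of Dehydrated against Control is therefore given with and without it for each of the 9 genes.

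All 9 genes were expressed in every library. Levels of different genes are compared here as CPM per kilobase of annotated exon, as means over the 28 libraries without Control M01. Slc12a5 was the most abundant at 128, followed by Clcn3 at 61.9, Stk39 at 34.8, Slc12a2 at 30.3, Wnk1 at 26.3, Wnk2 at 17.04, Oxsr1 at 10.8, Slc12a7 at 5.77 and Wnk3 at 4.36. The means stood in the same order in Control, Dehydrated and Rehydrated, and also with Control M01 included. Slc12a5 lay above Clcn3, Clcn3 above Stk39, Wnk1 above Wnk2, Wnk2 above Oxsr1 and Oxsr1 above Slc12a7 in 28 of 28 libraries. Some neighbours were not separated beyond their spread. Stk39 exceeded Slc12a2 in 21 libraries, Slc12a2 exceeded Wnk1 in 20, and Slc12a7 exceeded Wnk3 in 24, with overlapping ranges. These values depend on the annotated exon length, which is shortest for Stk39 (1663 bases) and longest for Wnk1 (9704 bases).

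**Figure D1:**
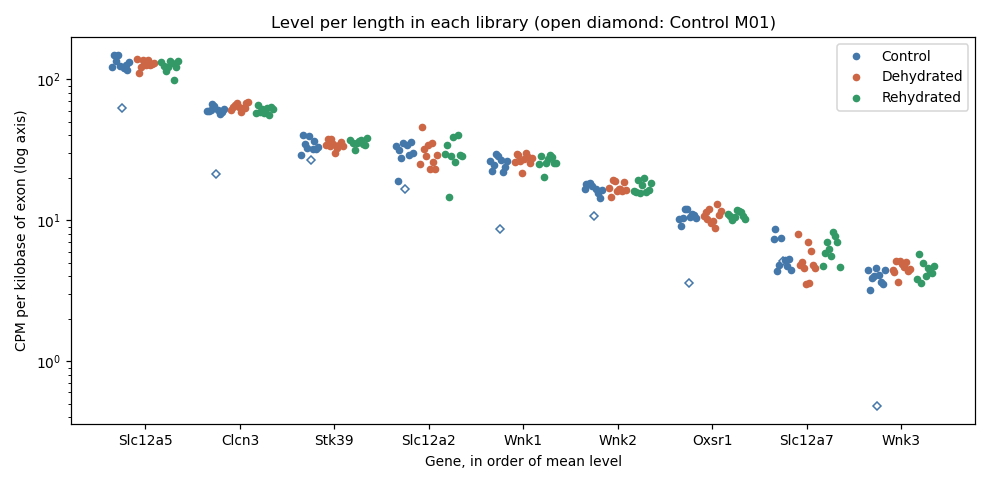
Level of each gene per length in each library, as CPM per kilobase of annotated exon on a log axis, with genes ordered by their mean over 28 libraries. Each point is a library, coloured by treatment, and the open diamond is Control M01. Slc12a5 (mean 128) lies above all other genes, and Wnk3 (mean 4.36) is lowest.

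Among the cotransporters, the KCC2 gene Slc12a5 (chromosome 8, 126068885 to 126111675, plus strand) was the steadiest. In Control it was lowest at 309 CPM in Control M01, and the other 9 libraries lay between 576 and 742 CPM with a median of 632. In Dehydrated it ran from 547 to 690 CPM with a median of 642, and in Rehydrated from 494 to 671 CPM with a median of 619. Control M01 was thus the only library under 494 CPM, and the 3 groups overlapped. The Dehydrated to Control ratio was 1.04 with a 95% interval of 0.912 to 1.19. Without Control M01 the interval was 0.915 to 1.07. For Rehydrated against Control it was 0.879 to 1.15, and 0.877 to 1.04 without Control M01.

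The NKCC1 gene Slc12a2 (chromosome 14, 52175470 to 52282656, minus strand) varied widely in every group. It ran from 77.5 CPM (Control M01) to 167 CPM in Control with a median of 143, from 107 to 214 CPM in Dehydrated with a median of 133, and from 67.7 to 186 CPM in Rehydrated with a median of 135. The lowest of all libraries was Rehydrated F05 and the highest was Dehydrated F04, so the groups overlapped over most of their ranges. Group means were 136 ± 30.9 CPM (n = 10), 140 ± 32.8 CPM (n = 10) and 139 ± 35.3 CPM (n = 9). The ratio of Dehydrated to Control had a 95% interval of 0.825 to 1.28, and that of Rehydrated to Control 0.814 to 1.28. Without Control M01 these were 0.794 to 1.22 and 0.777 to 1.21. Its coefficient of variation over the 28 libraries without Control M01 was 21.5%. That was more than in 83.8% of 13350 genes with a mean of at least 5 CPM, whose median was 12.99%.

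Slc12a7, the KCC4 gene (chromosome 20, 5957132 to 6031653, minus strand), was the least abundant cotransporter of the 3 and varied most, by 25.3%. Control libraries ran from 19.7 to 39.4 CPM with a median of 23.5, Dehydrated from 15.9 to 36.2 CPM with a median of 21.9, and Rehydrated from 21.1 to 37.3 CPM with a median of 28.2. Here Control M01, at 23.2 CPM, lay inside the range of the other Control libraries. Among the 9 genes it alone had an unadjusted p under 0.05 over all 29 libraries, in Rehydrated against Dehydrated, where 7 of 9 Rehydrated libraries exceeded the Dehydrated median. That log2 difference was 0.33 (SE 0.15, 95% interval 0.02 to 0.64, p = 0.0376), and its adjusted p was 1.0 in edgeR's quasi-likelihood test, so it did not pass. Against Control, the ratio had an interval of 0.729 to 1.10 in Dehydrated and 0.908 to 1.39 in Rehydrated, and of 0.722 to 1.10 and 0.897 to 1.39 without Control M01.

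The log2 ratio of Slc12a2 to Slc12a5 within a library, both per kilobase, sets the transcript of the uptake cotransporter against that of the neuronal one for removal. It averaged -2.10 ± 0.40 (SD, n = 9) in Control without M01, -2.13 ± 0.37 (n = 10) in Dehydrated and -2.10 ± 0.45 (n = 9) in Rehydrated. The mean over libraries of the percentage of Slc12a2 relative to Slc12a5 was 24.01%, 23.7% and 24.4%. Single libraries ran from -2.98 (Control F02) to -1.26 (Dehydrated F04), a spread within groups far above the differences between their means. With Control M01 the Control mean was -2.08. Both levels are those of the whole punch. Over the 28 libraries Slc12a2 had an r of 0.74 with oligodendrocyte markers and of -0.29 with neuron markers. The ratio is therefore not a measure of neurons alone.

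**Figure D2:**
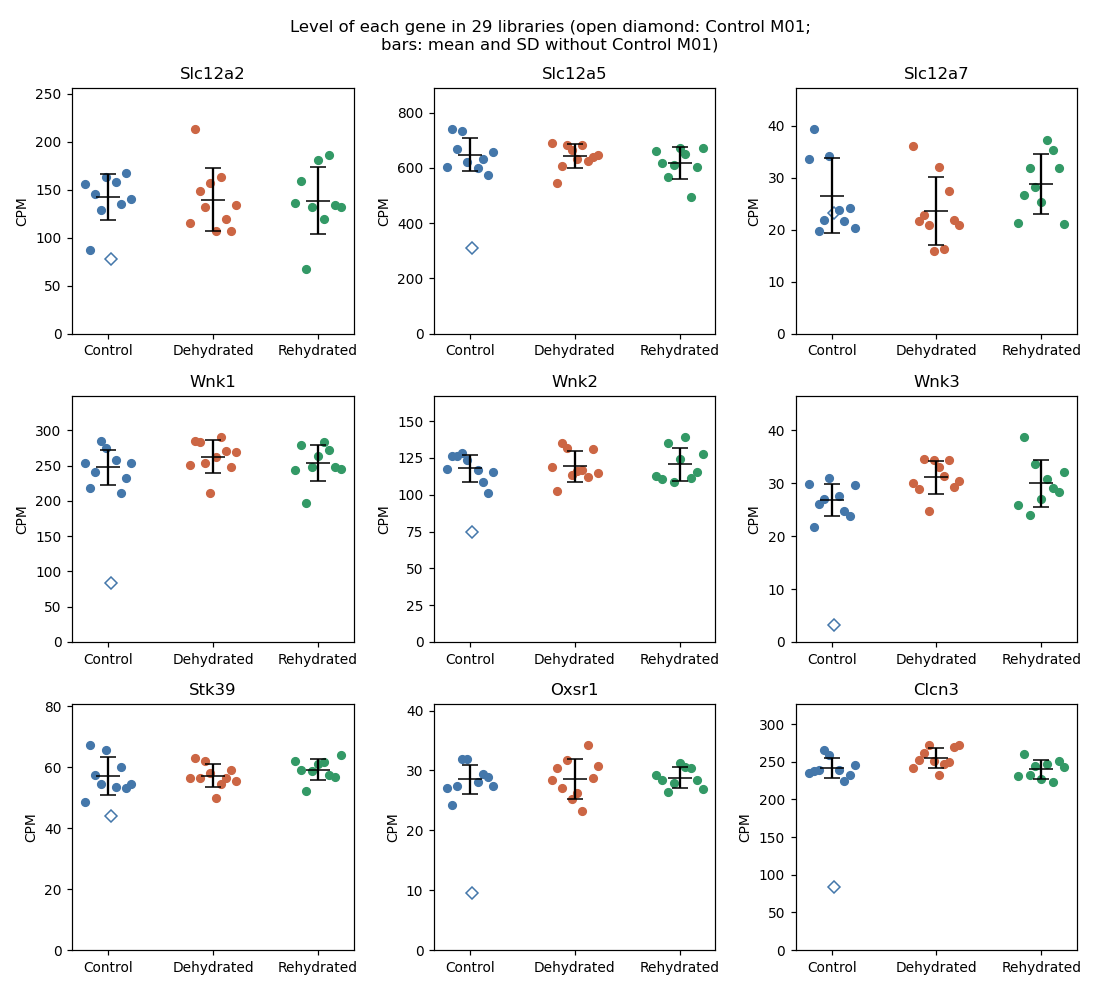
CPM of each of the 9 genes in every library, by treatment (10 Control, 10 Dehydrated and 9 Rehydrated libraries). Bars give the mean and SD without Control M01, which is the open diamond. Control M01 is the lowest point for 7 genes, and the 3 groups overlap in all 9 panels.

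The WNK kinases differed in level and in spread. Wnk1 (chromosome 18, 34390223 to 34544908, minus strand), which is expressed in many tissues, was at 83.8 CPM in Control M01 and between 212 and 285 CPM in the other Control libraries, with a median of 253. Dehydrated libraries ran from 211 to 291 CPM with a median of 265, and Rehydrated libraries from 197 to 284 CPM with a median of 248. The Dehydrated to Control difference was 0.18 on the log2 scale (SE 0.12, adjusted p = 0.803), and 0.09 (SE 0.06, adjusted p = 0.95) without Control M01. Wnk2 (chromosome 11, 94532272 to 94673343, minus strand), a brain-enriched WNK, lay between 101 and 139 CPM in all libraries but Control M01, where it was at 74.7 CPM. Its Dehydrated to Control interval was 0.94 to 1.16, and 0.932 to 1.10 without Control M01.

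Wnk3 (chromosome X, 54856378 to 55065131, plus strand), a neuronal WNK, had the widest gap between Control M01 and the other Control libraries as a share of their median. It held 34 counts (3.24 CPM) there, against 21.8 to 30.9 CPM in the other 9 Control libraries, whose median was 27.1. Dehydrated libraries ran from 24.8 to 34.6 CPM with a median of 30.8, and Rehydrated libraries from 24.1 to 38.8 CPM with a median of 29.1. In Dehydrated, 9 of 10 libraries exceeded the Control median and 5 of 10 exceeded every Control library. The log2 difference from Control was 0.34 (SE 0.19, 95% interval -0.04 to 0.72, adjusted p = 0.787). Without Control M01 it was 0.22 (SE 0.08, 95% interval 0.05 to 0.39), with an unadjusted p of 0.0148 and an adjusted p of 0.751. In the authors' deposited table it was 0.21 with an SE of 0.09, a p of 0.0127 and an adjusted p of 0.572. That table gives, for all 9 genes and both of its comparisons (18 values), the same log2 fold change to 3 digits as DESeq2 run without Control M01, so it is not a further independent result. Wnk3 passed in none of these. Over the alternatives run for this comparison, its lowest adjusted p was 0.66. In males, in the fit of group by sex, it was 0.536. For Rehydrated against Control the difference was 0.30 (adjusted p = 0.734), and 0.16 (adjusted p = 0.655) without Control M01. These treatment comparisons share the Control libraries.

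Stk39 and Oxsr1, the kinases that WNKs phosphorylate, held close levels across treatments. Stk39 (chromosome 4, 71088655 to 71390835, plus strand) was between 44.2 CPM (Control M01) and 67.3 CPM in Control, between 49.8 and 63.1 CPM in Dehydrated and between 52.4 and 63.9 CPM in Rehydrated, with medians of 54.5, 56.6 and 59.1 CPM. The groups overlapped throughout. Its Dehydrated to Control ratio was 1.02 with a 95% interval of 0.933 to 1.118, and the Rehydrated to Control ratio was 1.06 with an interval of 0.968 to 1.17. Without Control M01 the intervals were 0.924 to 1.09 and 0.956 to 1.13. Oxsr1 (chromosome 17, 5959856 to 6040747, plus strand) was at 9.52 CPM in Control M01. Its other Control libraries lay between 24.2 and 31.96 CPM, Dehydrated between 23.2 and 34.2 CPM and Rehydrated between 26.3 and 31.2 CPM. Without Control M01 its Dehydrated to Control interval was 0.914 to 1.11, and with it 0.902 to 1.27. For Rehydrated to Control the interval of Oxsr1 was 0.915 to 1.11 without Control M01 and 0.908 to 1.29 with it.

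Clcn3 (chromosome 1, 187323262 to 187416651, plus strand) was the steadiest of the 9 genes apart from Control M01. It stood at 84.3 CPM in that library, between 224 and 265 CPM in the other Control libraries (median 239), between 232 and 272 CPM in Dehydrated (median 251) and between 223 and 260 CPM in Rehydrated (median 243). Its coefficient of variation over 28 libraries was 5.77%, and 1.51% of the 13350 genes had a lower one. In Dehydrated, 9 of 10 libraries lay above the Control median. The log2 difference from Control was 0.17 (SE 0.11, adjusted p = 0.801), and 0.08 (SE 0.04, unadjusted p = 0.07, adjusted p = 0.889) without Control M01, where the interval of the ratio was 0.995 to 1.118. Rehydrated against Dehydrated gave -0.08 over all 29 libraries (SE 0.11, unadjusted p = 0.507 by edgeR). Without Control M01 it gave -0.09 (SE 0.04, unadjusted p = 0.0462, adjusted p = 0.763). Control M01 is in neither of these groups, but all libraries of a fit share 1 estimate of the spread.

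Over the whole table, 22 of 17558 genes passed in Dehydrated against Control by the edgeR test (quasi-likelihood, Benjamini-Hochberg adjusted), which is 0.125%. None of the 9 genes was among them, 0 had an unadjusted p under 0.05, and DESeq2 also called 0. Their adjusted p ran from 0.787 to 0.96. The log2 difference was above 0 in 8 of 9, with a median of 0.07, beside -0.00298 over all tested genes, of which 49.2% were above 0. Without Control M01 it was above 0 in 6 of 9, with a median of 0.01, and 1 of 9 (Wnk3) had an unadjusted p under 0.05. In Rehydrated against Control 0 of 17558 genes passed (0%), and 1313 had an unadjusted p under 0.05. Here 0 of the 9 passed in edgeR or DESeq2, and 0 had an unadjusted p under 0.05. In Rehydrated against Dehydrated 4 genes passed (0.0228%). Again 0 of the 9 passed by either tool, while 1 (Slc12a7), or 2 (Slc12a7 and Clcn3) without Control M01, had an unadjusted p under 0.05. With so few genes called over the table, 0 of 9 is near the background in each comparison. By edgeR 1118 of 17558 genes had an unadjusted p under 0.05 in Dehydrated against Control, and 681 in Rehydrated against Dehydrated. Without Control M01 these were 1007 and 1142 of 17545.

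**Figure D3:**
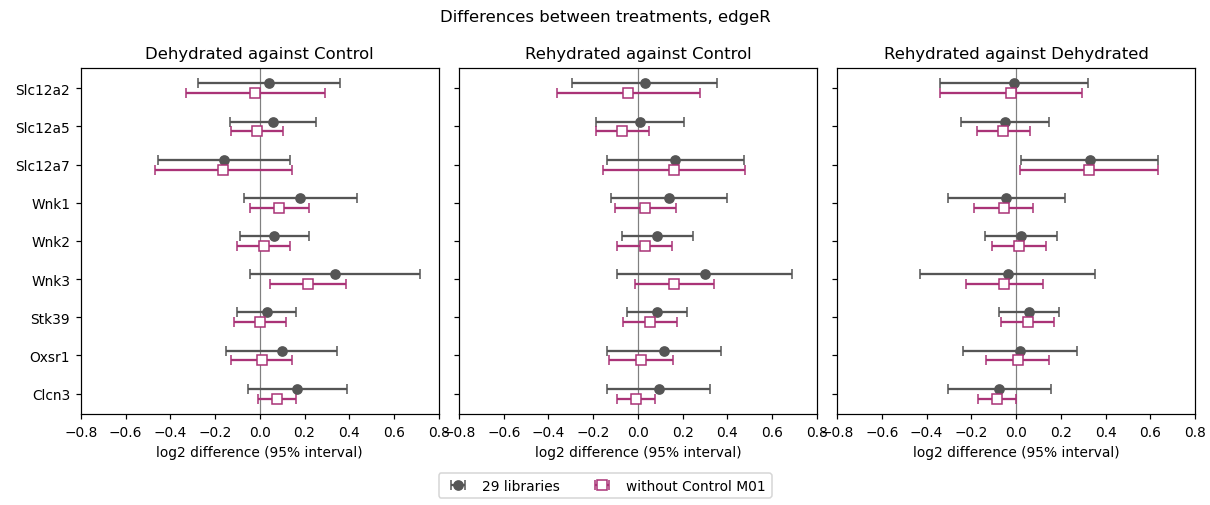
Log2 difference of each gene between treatments with its 95% interval from edgeR, over 29 libraries (filled circles) and without Control M01 (open squares). The interval of Wnk3 in Dehydrated against Control runs from -0.04 to 0.72 with all libraries and from 0.05 to 0.39 without Control M01, and no gene passes after adjustment over 17558 genes.

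Control M01 was low in most of these genes but not to the same degree. Against the median of the other 9 Control libraries, its CPM was 11.9% for Wnk3, 33.1% for Wnk1, 33.98% for Oxsr1 and 35.3% for Clcn3. It was 48.8% for Slc12a5, 53.3% for Slc12a2, 63.5% for Wnk2, 80.9% for Stk39 and 97.5% for Slc12a7. The library had the lowest level of all 29 in 7 of the 9 genes, the exceptions being Slc12a2 and Slc12a7. How many of the 17558 tested genes were lowest in Control M01 was not counted. The 7 of 9 therefore has no background to be set against and is not shown to be particular to these genes. The summed neuron markers of Control M01 stood at 5924 CPM, below the 6483 to 8540 CPM of the other libraries. Its microglia markers stood at 403 CPM, above the 99.9 to 207 CPM of the others. The members of these lists did not all shift alike. Leaving Control M01 out moved the Dehydrated to Control difference of Map2 to 0.09, its lowest of 29 fits. That of C1qa moved to 0.11, its highest. Snap25 and Csf1r stayed inside the range of the other fits, and some other neuron markers moved opposite to Map2. The part of these markers in the low values of Control M01 was not tested.

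Sex was compared over the same libraries by the label of each, which in 3 libraries differs from the letter in the library name. Between males and females 6 of 17558 genes passed (0.0342%), and 0 of the 9 did by edgeR or DESeq2, with 0 at an unadjusted p under 0.05. The difference of largest size was in Slc12a7, lower in males by 0.19 on the log2 scale as a point estimate (95% interval -0.44 to 0.06, adjusted p = 0.993). In Control its females were at 30.7 ± 7.34 CPM (n = 5) and its males at 21.7 ± 1.78 CPM (n = 5), while in Rehydrated the females were at 27.03 ± 4.36 CPM (n = 4) and the males at 30.2 ± 6.82 CPM (n = 5). For the sex difference of the dehydration response, an interaction term, 0 of 17558 passed (0%) and 1063 had an unadjusted p under 0.05. Of the 9 genes 0 passed, and the adjusted p ran from 0.861 for Wnk1 to 0.984 for Slc12a2. Without Control M01, 0 of the 9 passed in either comparison, 0 had an unadjusted p under 0.05 between the sexes, and the sex difference of Slc12a7 was -0.19.

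Whether the genes varied together was asked over the 28 libraries without Control M01, in 36 pairs of log2 CPM. The highest Pearson r was between Slc12a2 and Wnk1 at 0.52 (permutation p = 0.00533, adjusted over the 36 pairs 0.0805). Its Spearman rho was 0.31 (permutation p = 0.109, adjusted 0.436), and r was 0.23 without the 2 libraries farthest from the median of Slc12a2. Over all groups the relation thus rests on those libraries, while r was 0.41 within Control, 0.27 within Dehydrated and 0.82 within Rehydrated. Wnk1 and Wnk3 gave an r of 0.52 (permutation p = 0.00458, adjusted 0.0805) and a rho of 0.45 (permutation p = 0.0178, adjusted 0.208). Their r was 0.63 without the 2 farthest libraries, 0.76 within Control, -0.06 within Dehydrated and 0.64 within Rehydrated. The lowest r was between Slc12a2 and Wnk2 at -0.50 (permutation p = 0.00671, adjusted 0.0805), with a rho of -0.47 (permutation p = 0.0127, adjusted 0.208). This one was negative within each treatment (-0.46, -0.47 and -0.54), and was -0.33 without the 2 farthest libraries. In all, 0 of 36 pairs passed by either measure, and the median r was 0.07.

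With Control M01 included the picture differed. The median r over the 36 pairs was then 0.56, 7 pairs exceeded 0.8 against 0 without it, and 24 pairs passed. Wnk3 and Clcn3 went from 0.35 to 0.94, and Wnk3 and Oxsr1 from 0.01 to 0.88. Leaving out that 1 library removed all 24 calls.

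**Figure D4:**
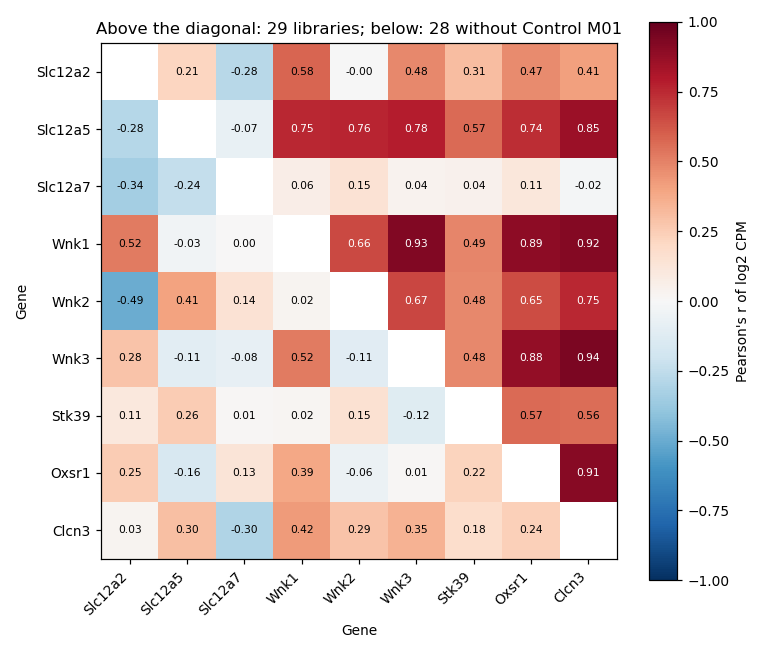
Pearson's r of log2 CPM for the 36 pairs of genes, above the diagonal over 29 libraries and below it over 28 libraries without Control M01. The median is 0.56 above the diagonal and 0.07 below it.

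The genes whose levels ran most alike over the 28 libraries were sought among 12804 other named genes, as a description without a test. For Slc12a2 these were Cldnd1 (r = 0.84) and Lpar1 (0.83), for Slc12a5 Dnm1, the neuronal dynamin gene (0.83), and Celsr2 (0.82), and for Slc12a7 Cpt2 (0.69) and Ltbp1 (0.66). For Wnk1 they were Tacc1 (0.79) and Enpp4 (0.78), for Wnk2 Col19a1 (0.78) and Ebf4 (0.75), and for Wnk3 Myo9a (0.78) and Bicd1 (0.78). Stk39 ran with Hdgf (0.63) and Habp4 (0.62), Oxsr1 with Ptpn21 (0.74) and Nr2c1 (0.67), and Clcn3 with Ccdc127 (0.70) and Nploc4 (0.68). None of these 18 is among the 9 genes. All points share library depth and scaling, and each r was picked as among the highest of 12804, so it is high by selection. Within single treatments r ran from 0.32 to 0.81 for Stk39 and Hdgf. For Oxsr1 and Nr2c1 it ran from 0.25 to 0.85.

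Because punches may differ in the cells they hold, each gene was set beside the summed CPM of 9 lists of cell type markers. This gave 81 relations over the 28 libraries. In 2 of these the adjusted p was under 0.05 by both measures. Slc12a2 followed the oligodendrocyte markers, led by Cnp and Mag (6 genes, r = 0.74, permutation p = 2e-05, adjusted 0.00162). The rho was 0.76 (permutation p = 1e-05, the smallest that 100000 resamples can give, adjusted 0.00081). The r was 0.53 within Control, 0.87 within Dehydrated and 0.88 within Rehydrated, and 0.67 without the 2 libraries farthest from the median of the markers. With Control M01 included it was 0.61. Rehydrated F05 had the lowest marker sum, 421 CPM, and the lowest Slc12a2. Among Rehydrated libraries M05 had the highest sum, 2018 CPM, and the highest Slc12a2, 186 CPM. The sums ran from 916 to 2086 CPM in Control without M01 (mean 1377), from 824 to 1687 CPM in Dehydrated (mean 1046) and from 421 to 2018 CPM in Rehydrated (mean 997). Of these 6 markers 0 passed in Dehydrated against Control and all 6 were at a lower point estimate.

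Slc12a5 followed the neuron markers, led by Map2 and Snap25 (9 genes, r = 0.60, permutation p = 0.0008, adjusted 0.0324). The rho was 0.64 (permutation p = 0.00025, adjusted 0.0101), and r was 0.49, 0.87 and 0.75 within Control, Dehydrated and Rehydrated. It was 0.54 without the 2 farthest libraries and 0.72 with Control M01 included. The sums ran from 6572 to 8035 CPM in Control without M01, from 6704 to 7564 CPM in Dehydrated and from 6483 to 8540 CPM in Rehydrated. The other relations did not pass by r. That of Slc12a2 with oligodendrocyte precursor markers came next (r = 0.55, permutation p = 0.00451, adjusted 0.114), and it passed by rho (0.58, permutation p = 0.00166, adjusted 0.0448). That of of Wnk2 with choroid plexus and ependyma markers had an r of 0.51 (adjusted 0.114 by permutation). No treatment difference of Slc12a2 or Slc12a5 passed. Whether the mix of cells has a part in their point estimates between treatments was not tested. In the gene test of Dehydrated against Control, 3 of 8 magnocellular markers (Avp, Pdyn and Caprin2) and 1 of 4 tested choroid plexus and ependyma markers (Kl) rose, and no marker of the other 7 lists passed. Pdyn and Caprin2 passed in 29 of 29 fits that left out 1 library each, and Kl in 4 of 29. Without Control M01 the adjusted p of Kl was 0.0951.

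**Figure D5:**
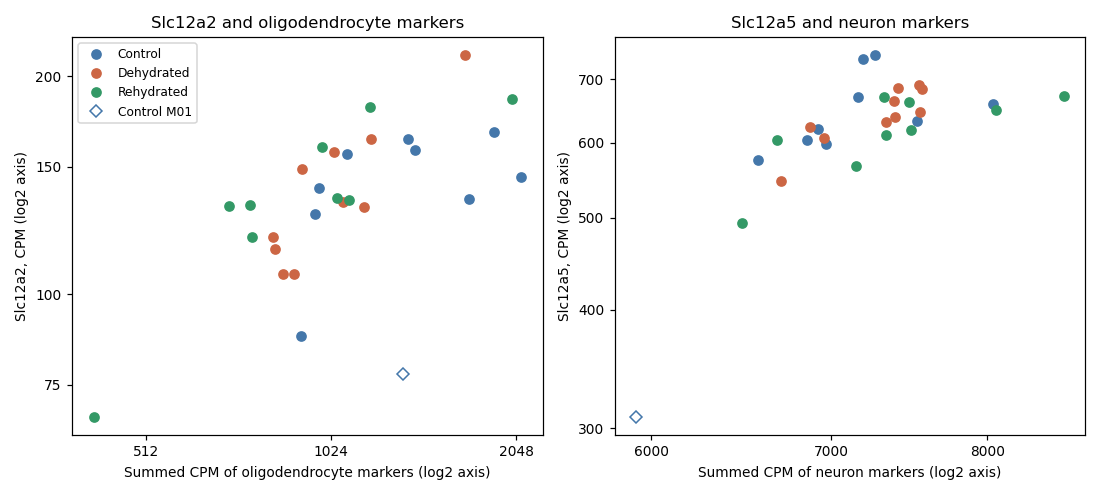
Left, Slc12a2 against the summed CPM of 6 oligodendrocyte markers; right, Slc12a5 against that of 9 neuron markers, both on log2 axes with 1 point per library. The open diamond, Control M01, was left out of r, which is 0.74 on the left and 0.60 on the right.

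Other genes of chloride and volume handling were counted from 6 lists with 51 genes, of which 45 could be tested. In Dehydrated against Control 0 rose and 0 fell, 1 had an unadjusted p under 0.05 and 26 were at a higher point estimate, with a median log2 difference of 0.04. In each of the other 3 comparisons 0 of 45 passed too, with 5, 5 and 2 at an unadjusted p under 0.05. Over all 17558 tested genes 1118, 1313, 681 and 679 had an unadjusted p under 0.05 by edgeR in the 4 comparisons. Of these 17558 genes, 49.2% were higher in Dehydrated than in Control. Without Control M01, 0 of 45 passed in any of the 4 comparisons, with 4, 4, 7 and 1 at an unadjusted p under 0.05 and a median of 0.01 in Dehydrated against Control. The counts over all 17545 genes of that fit were 1007, 1399, 1142 and 709. The values of single genes that follow are over all 29 libraries. Among the 4 tested SLC12 relatives the cotransporter-like Slc12a9 differed by -0.12 between Dehydrated and Control (adjusted p = 0.826). Slc12a1, which encodes the cotransporter NKCC2 and was matched here by RefSeq overlap only, did not exceed 0.794 CPM in any library. It was not tested.

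Of 9 regulators of the WNK pathway, Cab39l, whose product binds and activates SPAK and OSR1, had the smallest p (log2 difference 0.12, adjusted p = 0.803), followed by Nedd4l, a ubiquitin ligase gene (0.12, adjusted p = 0.814). Among 8 CLC relatives Clcn5 stood at 0.25 and Clcn6 at 0.12 (adjusted p = 0.803 and 0.809). Of 7 anion channel genes Ttyh1 averaged 424 ± 33.6 CPM in Control, against 390 ± 34.5 CPM after restriction (adjusted p = 0.783), and the calcium-activated chloride channel gene Ano2 at 11.8 ± 6.68 and 18.5 ± 9.36 CPM (adjusted p = 0.792). Of 7 chloride-bicarbonate exchanger genes Slc4a2 differed by -0.12 and Slc4a10 by 0.18 (adjusted p = 0.816 for both). The 1 gene with an unadjusted p under 0.05 was Fxyd7, a regulator of the sodium-potassium pump. Control libraries averaged 61.4 ± 11.6 CPM and Dehydrated libraries 52.1 ± 4.81 CPM (log2 difference -0.21, p = 0.0113, adjusted p = 0.636). Control M01 had the highest level of all 29 libraries, 85.7 CPM, and without it the difference was -0.16 (p = 0.0258, adjusted p = 0.798).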

How the data were processed

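Per the file headers, the deposited table holds raw counts of read pairs per gene from featureCounts 1.6.2, run without a strand option. Slc12a2, Wnk1 and Stk39 each overlap 1 unnamed gene on the other strand. Whether exons are shared is not given here. Where they are, reads of the 2 genes cannot be told apart by strand. The submitters' processing notes list FastQC, featureCounts and DESeq2. For the aligner, the name was not given in the sources used here. Per the file headers, 2 deposited tables of the authors' comparisons hold a log2 fold change, its standard error and p-values for each gene. No header states their model, and 56 columns of values per library were not used.

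Symbols came from the authors' deposited tables (9699 genes) or from RefSeq where at least 0.5 of each span was shared (5594 genes). Genes were filtered with filterByExpr, which left 17558 genes and removed 11612 with 0.126% of counts. The test was edgeR 4.0.16 under R 4.3.3 (TMM, robust quasi-likelihood, group and sex, 25 residual degrees of freedom), with p adjusted over all tested genes by Benjamini-Hochberg at 0.05, in 1 fit over all 29 libraries. The interaction used group by sex. Correlations used log2 CPM with a prior count of 0.5 and two-sided permutation tests with 100000 resamples in Python 3.11.15 with numpy 2.4.6. Alternatives were DESeq2 1.42.0, other scalings, filters, covariates and sample sets, and each library left out in turn. DESeq2 without Control M01, the marker relations and the fits of the pathway and marker genes without single libraries were added after seeing the data. The edgeR step was also run on simulated counts with no outlying library, which cannot show how it behaves with Control M01. None of the 126 pairs of libraries within groups was a duplicate by a chi-square test. Sequences of the genes were not used here.

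The 9 genes and all lists were chosen with earlier results of these data known. Named genes are the 9, of each pathway list those past the threshold or otherwise up to 2 with the smallest p in Dehydrated against Control, of each marker list up to 2 of highest mean CPM where it is discussed, and for each of the 9 the 2 most alike genes. Slc12a1 was named outside these rules, and the comparison of Avp was given as a check of the dehydration. Some genes these rules would name are not reported here, and 1 was also kept out of the oligodendrocyte marker sum.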

Additional observations from a re-analysis of the deposited data

Results flagged for a closer look

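In 7 of 27 sets of values (9 genes in 3 groups) 1 library lay far from the others by Dixon's test at the 95% level, where chance gives about 1 in 20. Control M01 accounted for 6 of the 7, each time as the lowest of the 10 Control libraries. Its levels were 309 CPM for Slc12a5, 83.8 CPM for Wnk1, 74.7 CPM for Wnk2, 3.24 CPM for Wnk3, 9.52 CPM for Oxsr1 and 84.3 CPM for Clcn3. The next lowest Control values were 576, 212, 101, 21.8, 24.2 and 224 CPM. The same library had the lowest total count of the 29, and its distance on the first principal component covered the tested genes as a whole. It was known beforehand to stand apart, and its 6 flags are not independent of each other. The 7 of 27 therefore cannot be weighed against the rate of 1 in 20.

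Rehydrated F05 was set apart by Wnk1, at 197 CPM among 9 Rehydrated libraries. That library also held the lowest Slc12a2 (67.7 CPM) and the lowest oligodendrocyte marker sum (421 CPM) of all 29. Without it, the Wnk1 difference between Rehydrated and Dehydrated was 0.00473 on the log2 scale, and -0.04 with it, neither of which passed.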

How the results depend on the processing

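None of the 9 genes passed in the comparisons of treatments or sexes under the alternatives run: over 1548 values the lowest adjusted p was 0.611. Outside these values, the lowest within a sex in the fit of group by sex was 0.467 (Clcn3 in males). Their log2 differences kept their sign in 1461 of these values and changed it in 87, all of them uncalled and at most 0.199 in size. The cause was not tested.

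With Control M01 and F03 left out, Dehydrated against Control gave -0.0224 for Slc12a2, -0.00859 for Slc12a5 and -0.00347 for Oxsr1; Rehydrated against Control gave -0.0444 for Slc12a2, -0.0648 for Slc12a5 and -0.012 for Clcn3; and males against females gave 0.045 for Wnk1, 0.00323 for Wnk2 and 0.0378 for Oxsr1. With DESeq2 and Control M01 left out, in the same order of comparisons, Slc12a2 was at -0.0222 and Slc12a5 at -0.0134, then Slc12a2 at -0.043, Slc12a5 at -0.069 and Clcn3 at -0.00805, then Slc12a5 at 0.0011, Wnk1 at 0.0401, Wnk2 at 0.013 and Oxsr1 at 0.0323. Among females alone, Dehydrated against Control gave -0.0382 for Slc12a5, -0.00076 for Stk39 and -0.0335 for Oxsr1. Rehydrated against Control among females gave -0.181 for Slc12a2, -0.0866 for Slc12a5, -0.178 for Slc12a7, -0.0593 for Wnk1, -0.0264 for Wnk2, -0.04 for Oxsr1 and -0.0205 for Clcn3. Rehydrated against Dehydrated gave -0.0308 for Wnk2 and -0.00655 for Oxsr1 among females, and 0.199 for Slc12a2 among males. With the name letter as covariate Slc12a2 was at -0.0127 between the sexes.

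Libraries of the same replicate name did not deviate together (18 pairs, r from -0.165 to 0.119), so the names were not taken as pairs. With a replicate block, Dehydrated against Control gave -0.0165 for Slc12a2 and 0.0883 for Slc12a7, Rehydrated against Control -0.0229 for Slc12a2, and Rehydrated against Dehydrated 0.113 for Wnk3. Between the sexes the block gave 0.00931 for Slc12a5, 0.118 for Wnk1, 0.149 for Wnk2, 0.12 for Wnk3, 0.0161 for Stk39 and 0.0176 for Clcn3. The block gave 15, 0, 7 and 3 genes past the threshold over the whole table, against 22, 0, 4 and 6 without it.

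With each library left out in turn, Dehydrated against Control ran from -0.0454 to 0.0839 for Slc12a2 and from -0.0123 to 0.0913 for Slc12a5. Rehydrated against Control ran from -0.0424 to 0.13 for Slc12a2, from -0.0697 to 0.0422 for Slc12a5 and from -0.00879 to 0.115 for Clcn3. Rehydrated against Dehydrated ran from -0.068 to 0.0969 for Slc12a2, -0.0735 to 0.00473 for Wnk1, -0.00919 to 0.0432 for Wnk2, -0.0918 to 0.0077 for Wnk3 and -0.0155 to 0.0603 for Oxsr1. Males against females ran from -0.0677 to 0.053 for Slc12a2, -0.0673 to 0.0391 for Wnk1, -0.0453 to 0.0122 for Wnk2 and -0.0716 to 0.0313 for Oxsr1. The number of genes past the threshold ran from 10 to 27 in Dehydrated against Control, from 0 to 2 in Rehydrated against Control and from 2 to 9 in Rehydrated against Dehydrated. The 10 came without Control F01 or M03 or without Dehydrated M06, the 27 and the 9 without Dehydrated F07, and the 2 of Rehydrated against Control without Rehydrated M05.

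Genes past the threshold over the whole table, in Dehydrated against Control, Rehydrated against Control, Rehydrated against Dehydrated and between the sexes, numbered 45, 20, 16 and 20 by DESeq2, and 47, 3, 20 and 21 by DESeq2 without Control M01. With only the compared groups they were 11, 0 and 1, among females alone 0, 2 and 0, and among males alone 0, 0 and 1. Without Control M01 and F03 the first was 12. Between the sexes they were 2 with the name letter and 16 with no filter. Pairs of the 9 genes past the threshold numbered 24 over all 29 libraries and 1 within Control, against 0 over 28. The lowest count of the 9 genes was that of Wnk3 in Control M01, at 34. The total of that library, 10797577, was close to the 11303717 of Control M05, where Wnk3 held 273 counts. In the other 28 libraries the 9 genes held 234 to 12305 counts each.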

Other observations

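Wnk2 and the oligodendrocyte marker sum had an r of -0.47 over 28 libraries (permutation p = 0.0119, adjusted over 81 relations 0.16) and of -0.46, -0.48 and -0.53 within Control, Dehydrated and Rehydrated. The rho was -0.38 (permutation p = 0.0448, adjusted 0.395), and r was -0.52 without the 2 libraries farthest from the median of the markers. It did not pass, and its sign is opposite to that of Slc12a2 with the same markers.

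Slc4a1, the band 3 exchanger of red blood cells, was the chloride-bicarbonate exchanger with the largest point difference, 2.74 on the log2 scale in Rehydrated against Dehydrated (p = 0.00244, adjusted p = 1.0 in edgeR). 1 library carries it: Rehydrated M04 was at 30.3 CPM, the other 8 Rehydrated libraries lay between 0.336 and 1.78 CPM, and Dehydrated libraries between 0.068 and 0.95 CPM. Without Rehydrated M04 the difference was 0.89 (SE 0.53, p = 0.106, adjusted p = 1.0). Slc4a1 is itself 1 of the 3 measured blood markers, whose sum ran from 31.8 to 188 CPM in Dehydrated and from 34.3 to 992 CPM in Rehydrated, where M04 was the highest. Clcn3 and the blood marker sum had an r of -0.45 over 28 libraries (permutation p = 0.0175, adjusted 0.202), with a rho of -0.51 (permutation p = 0.00606, adjusted 0.0982) and an r of -0.54 without the 2 farthest libraries. Within the groups the r was -0.29, -0.34 and -0.17.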
